A study of Drosophila melanogaster with 6 samples.

Results

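The genes described here are the 10 genes of the *Drosophila melanogaster* tricarboxylic acid (TCA) cycle *kdn*, *mAcon1* (formerly *Acon*), *Idh3a*, *Idh3b*, *Idh3g*, *Scsalpha1*, *SdhA*, *SdhB*, *Fum1* and *Mdh2*. They were listed by gene symbol, with earlier results of these data known, as 10 of the 17478 genes of the count table, and all 10 were matched. Expression was measured by sequencing polyA+ RNA of wing imaginal discs, the larval epithelia that give rise to the adult wings, dissected from female larvae of the third instar. Discs of genotype *UAS-CycGΔP, da-Gal4/+* (hereafter *CycGΔP*) were compared with *da-Gal4/+* control discs, with 3 libraries of 150 discs each per genotype. *CycGΔP* encodes a shortened Cyclin G that ends before its PEST-rich region. Such regions often shorten the life of a protein. Both genotypes carried the ubiquitous driver *da-Gal4*, so that the Gal4 protein is common to both. Control discs carried no *UAS* transgene, so that expression of *CycGΔP*, its insertion and the genetic background cannot be told apart. The replicates of a genotype came from independent crosses, and each library pools the discs of many larvae.

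The TCA cycle oxidises the acetyl group of acetyl-CoA in the mitochondrial matrix and passes the electrons to NADH and, through succinate dehydrogenase, to the respiratory chain. It also supplies carbon skeletons for amino acid, lipid and nucleotide synthesis in growing tissues. Citrate synthase, aconitase and isocitrate dehydrogenase carry out its first steps. 2-oxoglutarate dehydrogenase, succinyl-CoA synthetase, succinate dehydrogenase, fumarase and malate dehydrogenase complete the turn to oxaloacetate.

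Total counts per library were between 21853360 and 28656578 in *CycGΔP* discs and between 27821674 and 40059450 in control discs. Values are given as CPM, the count of a gene relative to the TMM-scaled total of its library, and each of the 10 genes had between 1113 and 18399 counts in a library. Across the 9408 genes with enough counts to be tested, edgeR's quasi-likelihood test called 134 genes at a Benjamini-Hochberg adjusted p-value under 0.05 (1.42%), 69 lower (0.733%) and 65 higher (0.691%) in *CycGΔP* discs. The *CycG* gene, whose reads can come from the transgene or the endogenous gene, had 1022, 1012 and 900.2 CPM in *CycGΔP* discs, against 723, 788 and 686 CPM in control discs. Its log2 fold change was 0.42 ± 0.088 (SE, n = 3 each), higher in every *CycGΔP* library than in every control library, with an edgeR adjusted p of 0.0909. All 7 matched wing disc marker genes were expressed, with summed levels of 1653 to 1771 CPM in *CycGΔP* discs and 1533 to 1788 CPM in control discs. Control library 1 stood apart by its fat body genes, whose 6 markers summed to 22240 CPM there, against 2167 and 717.5 CPM in the other control libraries and 4596 to 7556 CPM in *CycGΔP* discs. Of the 13 muscle markers, 11 had a log2 fold change below 0, 7 were lower at an unadjusted p under 0.05 (8.07% of tested genes were) and in 7 every *CycGΔP* library was below every control library (12.1% of tested genes), with a median log2 fold change of −1.46. Their sum, to which *Zasp52* (196 CPM in *CycGΔP* discs and 199 CPM in control discs) contributed most, was 293 to 364 CPM in *CycGΔP* discs and 357 to 570.2 CPM in control discs. *Mhc*, the muscle myosin heavy chain gene, was lower in *CycGΔP* discs by the test (5.95, 4.80 and 4.19 CPM, against 39.5, 18.6 and 17.7 CPM in control discs; log2 fold change −2.34 ± 0.36, SE, edgeR adjusted p = 0.0449). The 6 haemocyte markers summed to 35.1, 183 and 155 CPM in *CycGΔP* libraries 1, 2 and 3, against 77.4, 123 and 60.4 CPM in control libraries 1, 2 and 3, with a median log2 fold change of 0.88 and no p under 0.05. None of the markers of these 4 lists was at 0 in all libraries.

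None of the 10 TCA cycle genes was called by edgeR at an adjusted p under 0.05, where 1.42% of all tested genes were. Their log2 fold changes nevertheless lay mostly on one side. Of the 10 genes, 9 had a log2 fold change below 0, where 47.7% of all tested genes did, the exception being *Idh3g*, whose value was close to 0 and below 0 under RLE scaling or DESeq2. Their median was −0.17, with a range of −0.60 to 0.0041, against a median of 0.012 over all tested genes. At an unadjusted p under 0.05 edgeR gave 4 genes, all lower in *CycGΔP* discs (*Idh3a*, *Scsalpha1*, *SdhB* and *Fum1*), where 8.07% of tested genes were lower and 6.65% higher at this level. In 4 genes (*mAcon1*, *Idh3a*, *Scsalpha1* and *Fum1*) every *CycGΔP* library lay below every control library, as in 12.1% of tested genes, and in none did every *CycGΔP* library lie above, as in 9.98% of tested genes (22% in either direction). In the other 6 genes the groups overlapped. DESeq2, applied to the same counts, called 2 of the 10 genes lower (*Fum1* and *Scsalpha1*), where it called 3.27% of genes lower and 5.79% in either direction, and limma voom called none. Since whole discs were sequenced, fewer cells of a type and less RNA per cell cannot be told apart.

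**Figure D1:**
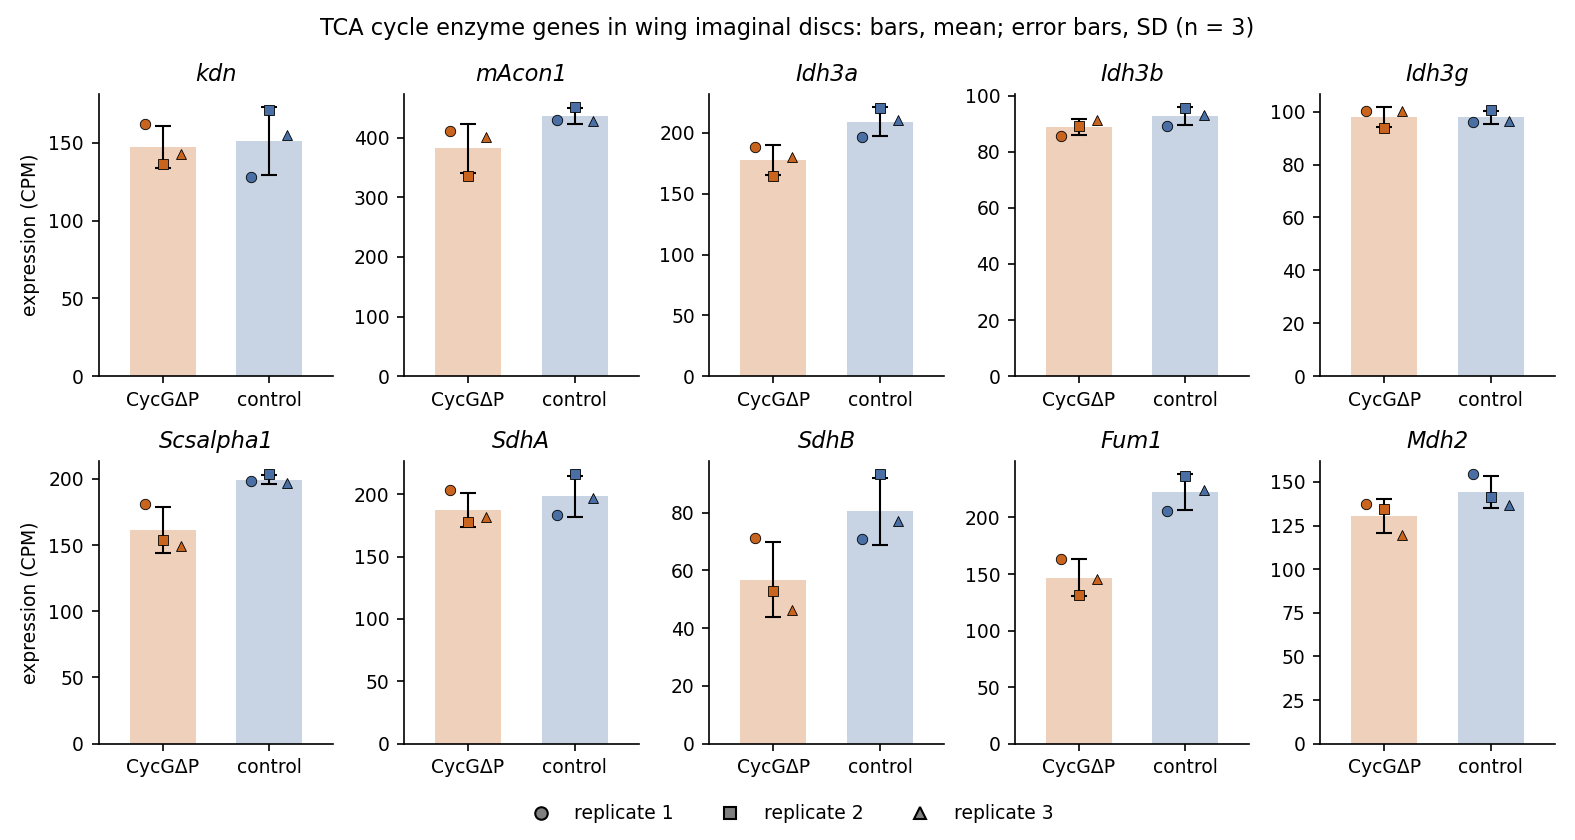
Expression of the 10 TCA cycle genes in CPM (vertical axes, starting at 0) in *CycGΔP* and control discs. Symbols are the libraries, bars the mean and error bars the SD of 3 libraries. For *Fum1* the *CycGΔP* libraries sit between 131 and 164 CPM, all below the control libraries at 205.5 to 237 CPM, whereas for *Idh3g* both groups lie between 93.8 and 101 CPM.

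The cycle starts with *kdn* (FBgn0261955), which encodes citrate synthase, the enzyme that condenses acetyl-CoA with oxaloacetate. It lies on the X chromosome at 6350629-6361323 on the plus strand of dm6. It had 162, 136.5 and 143 CPM in *CycGΔP* discs, against 128, 171 and 155 CPM in control discs. The groups overlapped, the lowest and the highest value both being controls. The log2 fold change was −0.039, with a 95% interval of −0.34 to 0.26 (edgeR adjusted p = 0.91). The sign of this value depends on single libraries, since it became 0.012 without *CycGΔP* library 2 and 0.041 without control library 2.

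*mAcon1* (FBgn0010100; 2L:21168570-21173185, plus strand) encodes mitochondrial aconitase, an iron-sulphur enzyme that converts citrate to isocitrate. It had the highest mean level per kilobase of exon of the 10 genes in both genotypes, and accounted for about the same share of their summed CPM in both groups (24.2% ± 1.5 in *CycGΔP* discs and 23.8% ± 0.59 in control discs, SD, n = 3 each). The libraries had 411.5, 335 and 401 CPM in *CycGΔP* discs, against 429, 452 and 428 CPM in control discs. The groups did not overlap, but *CycGΔP* library 1 lay just under the lowest control, and *CycGΔP* library 2 was far below the rest. The mean was 12.3% lower in *CycGΔP* discs, with a log2 fold change of −0.19 ± 0.095 (SE) that did not pass the test (edgeR adjusted p = 0.411). Without *CycGΔP* library 2 it was −0.10.

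NAD-dependent isocitrate dehydrogenase, which oxidises isocitrate to 2-oxoglutarate, is built of 3 kinds of subunit in animals. The catalytic alpha subunit gene (*Idh3a*) had a larger log2 difference between genotypes than the beta and gamma subunit genes (*Idh3b*, *Idh3g*). *Idh3a* (FBgn0027291; X:19518428-19521810, minus strand) had 188, 164 and 180.3 CPM in *CycGΔP* discs, against 197, 221 and 211 CPM in control discs. Every *CycGΔP* library was below every control library, and the mean was 15.2% lower. The log2 fold change was −0.24 ± 0.082 (SE), with an unadjusted p of 0.0247 and an edgeR adjusted p of 0.243. *Idh3b* (FBgn0038922; 3R:22016391-22019382, minus strand) varied little, with 85.8, 89.3 and 91.4 CPM in *CycGΔP* discs, against 89.3, 95.7 and 93.2 CPM in control discs. Its log2 fold change was −0.063, with a 95% interval of −0.22 to 0.093 (edgeR adjusted p = 0.679), and −0.11 without control library 1. *Idh3g* (FBgn0039358; 3R:25680845-25683780, plus strand) had 100.2, 93.8 and 100.2 CPM in *CycGΔP* discs, against 96.0, 101 and 96.5 CPM in control discs. Both groups covered nearly the same range, the log2 fold change was 0.0041, and the 95% interval of −0.15 to 0.16 leaves room for changes of about that size in either direction (edgeR adjusted p = 0.984).

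These subunits can also be compared within a library, where the scaling between libraries plays no part. The count of *Idh3a* relative to *Idh3g* was 1.88, 1.75 and 1.80 in *CycGΔP* discs, against 2.05, 2.19 and 2.18 in control discs. All *CycGΔP* ratios were lower than all control ratios, by 0.24 on the log2 scale. The ratio of *Idh3a* to *Idh3b* was 2.19, 1.84 and 1.97 in *CycGΔP* discs, against 2.20, 2.31 and 2.26 in control discs, where *CycGΔP* library 1 and control library 1 nearly coincided. The ratio of *Idh3b* to *Idh3g* overlapped between groups, with 0.856, 0.952 and 0.912 in *CycGΔP* discs and 0.930, 0.949 and 0.966 in control discs. In a two-sided exact permutation test the first and second of these ratios gave p = 0.1, the smallest value that 3 against 3 libraries allow, and the last gave p = 0.3. After Benjamini-Hochberg adjustment over the 4 ratios tested, these became 0.133 and 0.3, so that none passed.

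No subunit of 2-oxoglutarate dehydrogenase is among the 10 genes, but its 3 component genes were in the count table. *Ogdh*, coding for the dehydrogenase component, had 151, 128 and 127.5 CPM in *CycGΔP* discs and 141, 155 and 125 CPM in control discs, with overlapping groups (log2 fold change −0.048, edgeR adjusted p = 0.869). *CG5214*, the succinyltransferase gene, and *CG7430*, coding for the dihydrolipoamide dehydrogenase that is shared with pyruvate dehydrogenase, had log2 fold changes of −0.16 and −0.30 (edgeR adjusted p = 0.381 and 0.266). In both of these genes every *CycGΔP* library was below every control library, as in 12.1% of tested genes. The margins were narrow. For *CG5214*, *CycGΔP* library 1 had 162.3 CPM and control library 1 had 162.8 CPM, and for *CG7430* these libraries had 208.3 and 209.5 CPM.

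*Scsalpha1* (FBgn0004888; 3L:3814211-3818383, plus strand) encodes the alpha subunit of succinyl-CoA synthetase, which makes a nucleoside triphosphate while releasing succinate. Its control libraries were very close to each other, at 198, 203 and 197 CPM, and the *CycGΔP* libraries had 181, 154 and 149 CPM. All of the *CycGΔP* libraries were lower, and the mean was 19.1% lower (161 ± 17 CPM in *CycGΔP* and 199 ± 3.6 CPM in controls, SD of 3 libraries each). The log2 fold change was −0.30 ± 0.090 (SE), with an unadjusted p of 0.0126 and an edgeR adjusted p of 0.188. DESeq2 gave an adjusted p of 0.036, the lowest of the range of 0.036 to 0.478 over 13 alternatives. The beta subunits, which decide whether ATP or GTP is made in animals, had log2 fold changes nearer 0. *ScsbetaA* had 187, 170 and 213 CPM in *CycGΔP* discs and 216, 198 and 212 CPM in control discs (log2 fold change −0.14, edgeR adjusted p = 0.542). *ScsbetaG* had 92.1, 84.6 and 96.6 CPM in *CycGΔP* discs and 105, 98.8 and 105 CPM in control discs, without overlap (log2 fold change −0.17, edgeR adjusted p = 0.352). The ratios of *Scsalpha1* to each beta subunit, computed after the data had been seen, overlapped between the groups.

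**Figure D2:**
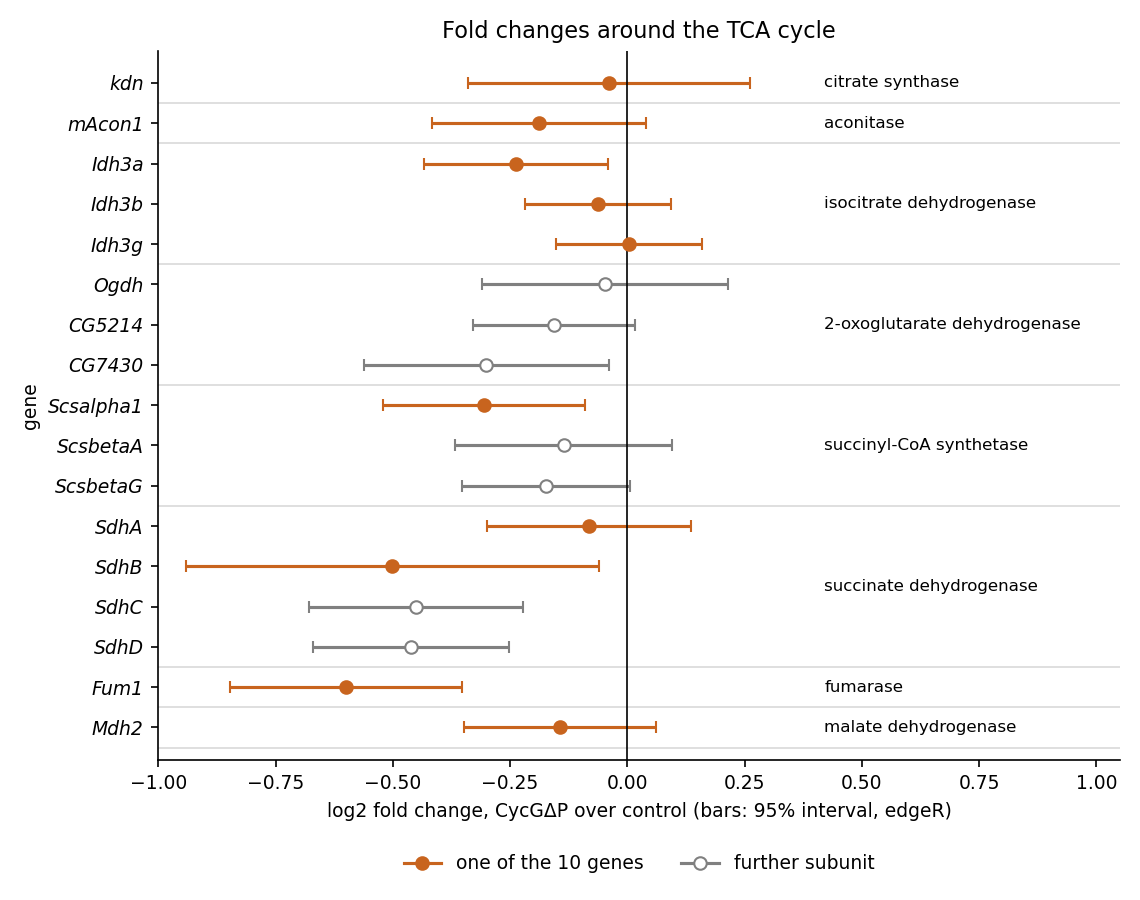
Log2 fold change of *CycGΔP* over control discs (horizontal axis) for the 10 genes (filled symbols) and for further subunits of the same complexes and of 2-oxoglutarate dehydrogenase (open symbols), in the order of the cycle. Bars are 95% intervals from edgeR, without adjustment for the number of genes. The intervals of *Fum1* (−0.85 to −0.35), *SdhC* (−0.68 to −0.22) and *SdhD* (−0.67 to −0.25) lie farthest from 0.

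Succinate dehydrogenase, or respiratory complex II, oxidises succinate to fumarate and hands the electrons to ubiquinone. Its flavoprotein gene *SdhA* and its iron-sulphur subunit gene *SdhB* showed different values. *SdhA* (FBgn0261439; 2R:19391863-19395971, minus strand) had 203, 178 and 182 CPM in *CycGΔP* discs, against 183, 216 and 197 CPM in control discs, with overlapping groups. Its log2 fold change was −0.082 ± 0.091 (SE, edgeR adjusted p = 0.705). The value depended on single libraries, being −0.15 without *CycGΔP* library 1, −0.045 without *CycGΔP* library 2, −0.16 without control library 1 and −0.034 without control library 2. *SdhB* (FBgn0014028; 2R:6807626-6809172, plus strand) had 71.4, 52.9 and 46.3 CPM in *CycGΔP* discs, against 71.0, 93.3 and 77.1 CPM in control discs. *CycGΔP* libraries 2 and 3 were below all controls, whereas *CycGΔP* library 1 was level with control library 1. *SdhB* was also the most variable of the 10 genes between *CycGΔP* libraries, with a coefficient of variation of 22.9%. The mean was 29.3% lower in *CycGΔP* discs, with a log2 fold change of −0.50 ± 0.18 (SE), an unadjusted p of 0.0313 and an edgeR adjusted p of 0.27.

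The 2 membrane anchor genes of the complex, which are not among the 10, lay closer to *SdhB* than to *SdhA*. *SdhC* had 56.5, 60.4 and 63.1 CPM in *CycGΔP* discs, against 76.8, 77.3 and 92.0 CPM in control discs (log2 fold change −0.45 ± 0.095, SE, edgeR adjusted p = 0.0921). *SdhD* had 40.3, 40.8 and 35.0 CPM in *CycGΔP* discs, against 49.3, 54.6 and 55.9 CPM in control discs (log2 fold change −0.46 ± 0.087, SE, edgeR adjusted p = 0.0704). Neither passed the test. In both genes all *CycGΔP* libraries were below all control libraries, as in 12.1% of tested genes. Within libraries, the ratio of *SdhA* to *SdhB* counts was 2.85, 3.37 and 3.93 in *CycGΔP* discs, against 2.58, 2.32 and 2.55 in control discs. This ratio was higher in all *CycGΔP* libraries, by 0.43 on the log2 scale. The two-sided exact permutation test gave p = 0.1, the smallest value it allows here (adjusted p = 0.133). The other 2 ratios with *SdhA* were chosen after the values had been seen and were not tested. *SdhA* to *SdhC* was 3.59, 2.95 and 2.88 in *CycGΔP* discs, against 2.39, 2.79 and 2.14 in control discs, and *SdhA* to *SdhD* was 5.05, 4.36 and 5.19 in *CycGΔP* discs, against 3.71, 3.95 and 3.52 in control discs. Among *SdhB*, *SdhC* and *SdhD* themselves the ratios overlapped between groups.

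**Figure D3:**
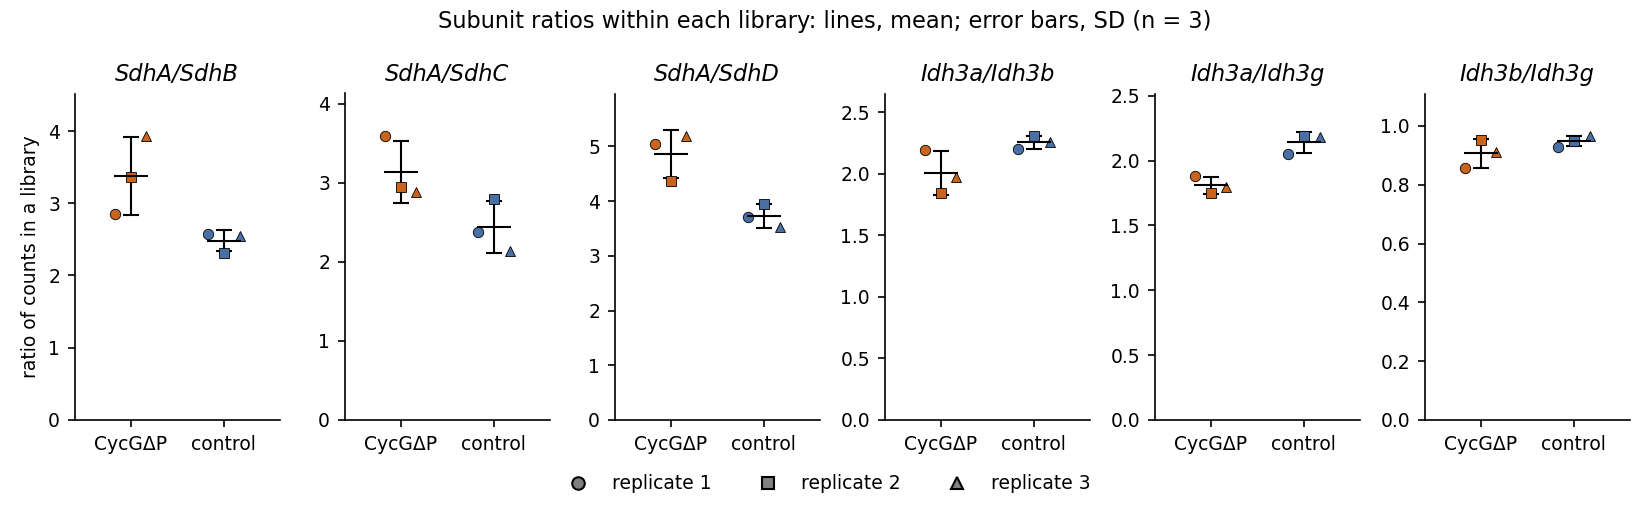
Ratios of the counts of 2 subunit genes within each library (vertical axes, starting at 0), for succinate dehydrogenase (3 panels on the left) and isocitrate dehydrogenase (3 panels on the right). Symbols are libraries, horizontal lines the mean and error bars the SD of 3 libraries. *SdhA*/*SdhB* was 2.85 to 3.93 in *CycGΔP* discs and 2.32 to 2.58 in control discs, and *Idh3a*/*Idh3g* was 1.75 to 1.88 in *CycGΔP* discs and 2.05 to 2.19 in control discs.

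*Fum1* (FBgn0028336; X:6678424-6681845, plus strand) encodes fumarase, which hydrates fumarate to malate, and differed most between the genotypes. It had 164, 131 and 145 CPM in *CycGΔP* discs, against 205.5, 237 and 224.5 CPM in control discs. The groups were well apart, the highest *CycGΔP* library being under the lowest control by more than the SD of either group. The mean of the *CycGΔP* libraries was 147 ± 16 CPM, against 222 ± 16 CPM in controls (SD of 3 libraries each), or 34% lower. The log2 fold change was −0.60 ± 0.10 (SE), with an unadjusted p of 0.000817, the 140th smallest of 9408, and an edgeR adjusted p of 0.0549. *Fum1* therefore fell just short of the threshold. Under 13 alternatives its log2 fold change lay between −0.69 and −0.52, and its adjusted p between 1.91e-05 and 0.242. It passed under 2 of them, DESeq2 (1.91e-05) and edgeR restricted to genes with at least 10 counts in every library (0.0373). The neighbouring fumarase gene *Fum2* had few counts (61 to 175 in a library), with 2.71, 2.90 and 2.16 CPM in *CycGΔP* discs, against 3.90, 4.30 and 4.11 CPM in control discs (log2 fold change −0.66, edgeR adjusted p = 0.197). Exons of *Fum2* overlap those of *Fum1* on the same strand by 79 bp in the annotation.

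*Mdh2* (FBgn0262559; 3R:18226396-18228718, plus strand) encodes the mitochondrial malate dehydrogenase, which regenerates oxaloacetate. It had 137.5, 135 and 119.5 CPM in *CycGΔP* discs, against 154, 141 and 137 CPM in control discs. The groups overlapped only by *CycGΔP* library 1 and control library 3. The log2 fold change was −0.14 ± 0.085 (SE, edgeR adjusted p = 0.482), and −0.083 without *CycGΔP* library 3. Its cytosolic counterpart *Mdh1*, of the malate-aspartate shuttle, had 112, 107 and 112 CPM in *CycGΔP* discs, against 174, 125 and 128 CPM in control discs (log2 fold change −0.37, edgeR adjusted p = 0.275).

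Summed over the 10 genes, expression was 1705, 1470 and 1557 CPM in *CycGΔP* discs, against 1751, 1930 and 1815 CPM in control discs. Each *CycGΔP* library was thus below each control library, and the mean sum was 13.9% lower (1577 ± 119 CPM in *CycGΔP* libraries and 1832 ± 91 CPM in controls, SD of 3 libraries each). The sum hides that the genes did not share the difference evenly. *Fum1* made up 9.28% ± 0.34 of the sum in *CycGΔP* discs and 12.1% ± 0.34 in control discs, and *SdhB* 3.59% ± 0.61 in *CycGΔP* discs and 4.38% ± 0.40 in control discs. The shares of *kdn* (9.32% in *CycGΔP* discs and 8.23% in control discs), *Idh3g* (6.23% in *CycGΔP* discs and 5.34% in control discs) and *SdhA* (11.9% in *CycGΔP* discs and 10.8% in control discs) were higher.

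The libraries also differed within a genotype. *CycGΔP* library 1 was the highest of its group for 8 of the 10 genes and *CycGΔP* library 2 the lowest for 6. Among controls, library 2 was the highest for 9 genes and library 1 the lowest for 7. As a consequence *CycGΔP* library 1 exceeded control library 1 for 4 of the 10 genes. Relative to the mean of the 3 controls, the average log2 value of the 10 genes was −0.097, −0.30 and −0.26 in *CycGΔP* libraries 1, 2 and 3, against −0.073, 0.085 and −0.012 in control libraries 1, 2 and 3. Only in *CycGΔP* library 2 were all 10 genes below the control mean. Control library 1, with the low values, is also the library with the high fat body marker sum. Without it the median log2 fold change of the 10 genes was −0.19, and the ratio of summed expression 0.831 instead of 0.861. The log2 fold change of *Fum1* was then −0.67 (edgeR adjusted p = 0.0724). The groups still differed in fat body markers. Their sums were 2167 and 717.5 CPM in control libraries 2 and 3, against 4596 to 7556 CPM in *CycGΔP* discs. *CycGΔP* library 1, with the highest values of its group, had the lowest haemocyte marker sum of the 6 libraries (35.1 CPM), and *CycGΔP* library 2, with the lowest values, had the highest (183 CPM). Among controls, by contrast, library 2, the highest for 9 genes, also had the highest haemocyte marker sum of its group (123 CPM). The part of the fat body, haemocyte and muscle markers in the differences was not tested.

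**Figure D4:**
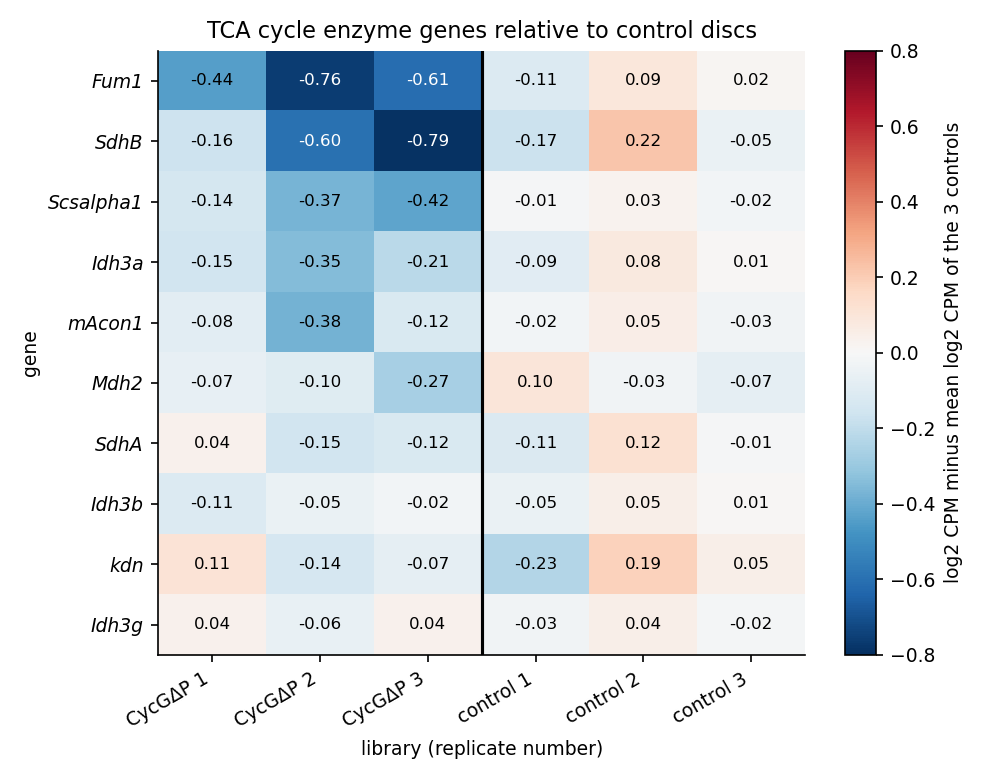
Log2 CPM of each of the 10 TCA cycle genes (rows, ordered by mean difference) in each library (columns, numbered by replicate) minus the mean log2 CPM of the 3 control libraries. Blue is below and red above the control mean. *Fum1* was at −0.44, −0.76 and −0.61 in *CycGΔP* libraries 1, 2 and 3, and all 10 genes were below 0 in *CycGΔP* library 2.

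Levels of different genes were compared per kilobase of annotated exon, in an annotation later than the Ensembl BDGP5 gene models on which the reads had been counted, so that the lengths are approximate. In *CycGΔP* discs the order was *mAcon1* (123 CPM per kb), *Scsalpha1* (109), *Mdh2* (97.8), *Idh3a* (84.4), *Fum1* (78.8), *SdhA* (68.2), *kdn* (51.9), *SdhB* (46.6), *Idh3b* (43.1) and *Idh3g* (41.3 CPM per kb). In control discs it was *mAcon1* (140.5 CPM per kb), *Scsalpha1* (135), *Fum1* (119), *Mdh2* (108), *Idh3a* (99.5), *SdhA* (72.2), *SdhB* (66.0), *kdn* (53.3), *Idh3b* (45.1) and *Idh3g* (41.2 CPM per kb). *Fum1* was thus the third in control discs and the fifth in *CycGΔP* discs, behind *Mdh2* and *Idh3a*. Many neighbours in these orders cannot be told apart. In *CycGΔP* discs only *Mdh2* and *Idh3a*, and *SdhA* and *kdn*, had ranges that did not overlap. In control discs this held for *mAcon1* and *Scsalpha1*, *Scsalpha1* and *Fum1*, *Idh3a* and *SdhA*, and *Idh3b* and *Idh3g*.

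Beyond the 10 genes, 20 further genes of the cycle were listed, comprising the remaining subunits and the isozymes. Of these, 9 had enough counts to be tested, and edgeR called none (0 lower and 0 higher at an adjusted p under 0.05, 4 lower and 0 higher at an unadjusted p under 0.05, where 8.07% of all tested genes were lower and 6.65% higher). Their median log2 fold change was −0.17, and 8 of the 9 were below 0, where 47.7% of all tested genes were. The other 11, among them the second aconitase gene *mAcon2* and the fumarase genes *Fum3* and *Fum4*, had at most 14 counts in any library, and 5 of them had no count in any of the 6 libraries. Besides *Fum2*, the tested isozyme gene was *CG32026*, an isocitrate dehydrogenase gene, with 2.06, 15.2 and 3.53 CPM in *CycGΔP* discs, against 3.77, 0.245 and 3.80 CPM in control discs (log2 fold change 1.41 ± 1.17, SE, edgeR adjusted p = 0.599). Its value in *CycGΔP* library 2 stood far above the others.

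The genes that feed the cycle gave no call either. Of 9 listed genes for the entry of pyruvate, 8 were tested and none was called (1 lower and 0 higher at an unadjusted p under 0.05, where 8.07% of all tested genes were lower and 6.65% higher, with a median log2 fold change of −0.12). This list includes *Pdhb*, the E1 beta subunit of pyruvate dehydrogenase, with 90.3, 75.9 and 72.0 CPM in *CycGΔP* discs, against 90.0, 110 and 103 CPM in control discs (log2 fold change −0.34, edgeR adjusted p = 0.235). Of 12 listed genes for anaplerosis, citrate export and the malate-aspartate shuttle, 11 were tested and none was called (3 lower and 1 higher at an unadjusted p under 0.05, against the same shares, with a median of −0.15). Of the assembly factors of succinate dehydrogenase only *Sirup* was matched, with a log2 fold change of 0.049 ± 0.40 (SE, edgeR adjusted p = 0.969). It had 29.6, 28.7 and 30.4 CPM in *CycGΔP* discs, against 48.4, 19.0 and 18.4 CPM in control discs. Control library 1 was thus above all *CycGΔP* libraries, and control libraries 2 and 3 were below them.

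Cytochrome c oxidase and glycolysis, which neighbour the cycle, had lower medians than the 10 genes. Of 10 listed genes of cytochrome c oxidase (respiratory complex IV), 9 were tested, all 9 were below 0, and edgeR called 3 lower, *COX7A*, *COX8* and *cype* (adjusted p = 0.0277, 0.0287 and 0.0431). Their median log2 fold change was −0.61, where the share of tested genes called lower was 0.733%. At an unadjusted p under 0.05 in edgeR, 8 of the 9 complex IV genes were lower and 0 higher, where 8.07% of all tested genes were lower and 6.65% higher. Of 12 glycolytic genes all were tested and all 12 were below 0, where 47.7% of all tested genes were. Among them 10 were lower and 0 higher at the same unadjusted level. Their median was −0.39, and 1 gene was called at an adjusted p under 0.05. That gene, *Gapdh1*, coding for a glyceraldehyde-3-phosphate dehydrogenase, had 163, 176.5 and 162 CPM in *CycGΔP* discs, against 338.5, 345 and 322 CPM in control discs (log2 fold change −1.0 ± 0.070, SE, edgeR adjusted p = 0.00437). These medians are descriptions, and the difference between lists was not tested. Of the 50 genes tested in the lists around the cycle, edgeR called 4 lower and 0 higher, where it called 0.733% of all tested genes lower and 0.691% higher, and DESeq2 called 20 lower and 0 higher, where it called 3.27% of all genes lower and 5.79% in either direction. With *CycGΔP* library 1, 2 or 3 or control library 2 or 3 left out, edgeR called 1 gene of these lists. Without control library 1 it called 3 (2 lower and 1 higher). Calls also fell over all tested genes, from 1.42% to between 0.114% and 0.287% in the former fits and to 0.812% in the latter.

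**Figure D5:**
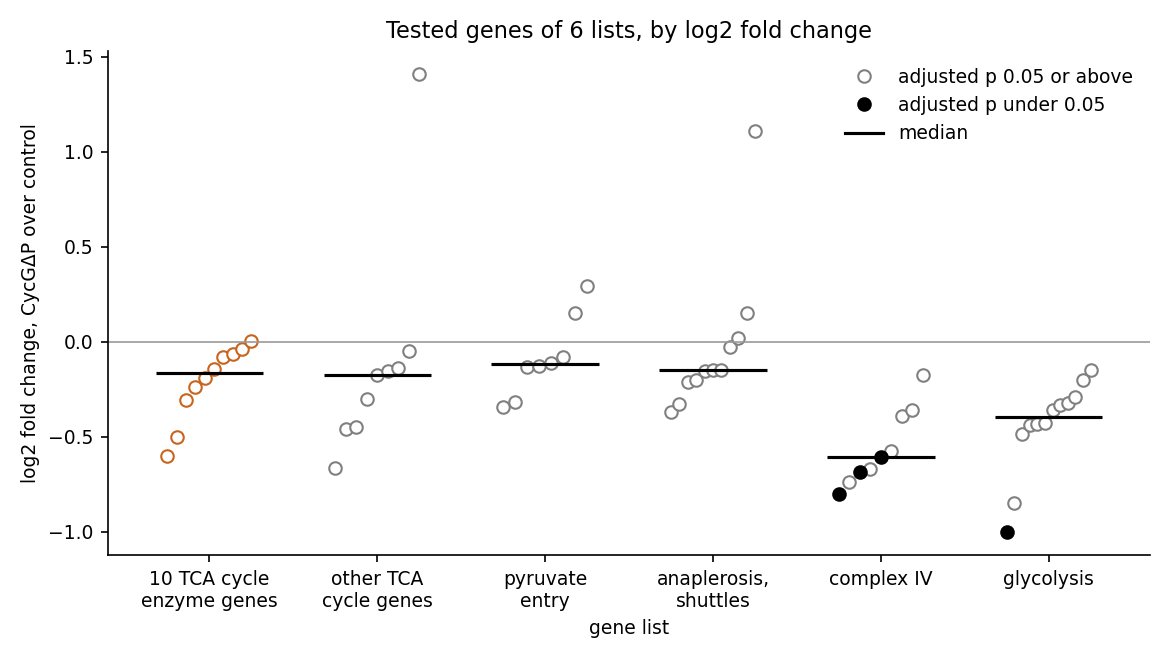
Log2 fold change of *CycGΔP* over control discs (vertical axis) for the tested genes of 6 lists (horizontal axis), each symbol a gene and each line the median of a list. Filled symbols mark genes with an edgeR adjusted p under 0.05. The 10 TCA cycle genes (orange) had a median of −0.17 and no filled symbol, complex IV a median of −0.61 with 3 filled symbols, and glycolysis a median of −0.39 with 1.

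Several of the 10 genes share exon sequence with a neighbour in the annotation used here, which is later than the one used for counting. On the opposite strand this held for *Idh3g* with *RpL27* over 158 bp, *SdhB* with *CG15237* over 129 bp, *Fum1* with *ND-ASHI* over 77 bp, *SdhA* with *CG11257* over 38 bp, and *mAcon1* with *CG43345* and *CG43346* over 12 bp each. Whether the counting used the strand is not given in the sources used here, so that reads in these stretches cannot be assigned with certainty.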

How the data were processed

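Stranded polyA+ libraries were sequenced as 50 bp single reads. The authors aligned these with TopHat2 2.0.10 to dm6, and the deposited counts per gene of Ensembl BDGP5, from summarizeOverlaps in Union mode, hold reads with an unambiguous position and were not normalized. The deposited table normalized by DESeq2 was not used here, and 0 value columns of other samples were left out. Groups and replicate numbers came from the labels. Gene IDs were matched to a later annotation of dm6, and 2 outdated IDs (*Fum1* and *muc*) by synonym or coordinates.

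Counts were tested in R 4.3.3 with edgeR 4.0.16 (TMM, filterByExpr by group, robust quasi-likelihood fit without covariates, Benjamini-Hochberg adjustment over 9408 genes, threshold 0.05). CPM values divide by the TMM-scaled library size. Counts of 2 genes in a library were compared by exact permutation. Alternatives were RLE and upper-quartile scaling, DESeq2 1.42.0, limma 3.58.1 voom, 2 other filters, a replicate block, an adjusted p under 0.01, and each library left out. The members, lists and tests were chosen with earlier results of these data known. Named were the 10 genes, *CycG*, further subunits, called genes of the other lists, *Mhc* if called, and the 5 genes with the most similar profile. *Mdh1*, *Pdhb*, *Fum2*, *CG32026*, *Zasp52*, the neighbours sharing exons and the isozymes at low counts were named after their values were seen. The markers *wg* and *btl* and 3 assembly factors of succinate dehydrogenase were not matched. Wing disc and adult muscle precursor markers (5 of 6 tested), haemocyte (6), fat body (6) and neuron and trachea markers (4) held no gene with an edgeR adjusted or unadjusted p under 0.05.

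In a simulation, set fold changes were given to genes drawn at random from the tested genes. The spread between libraries was the one that edgeR had estimated from these data. Of 9572 genes edgeR called 103, 95 of them among 192 changed genes and 8 falsely. Of the changed genes it called 10 of 68 with a change of 0.5 on the log2 scale, 43 of 71 with a change of 1 and 42 of 53 with a change of 2. DESeq2 made 63 false calls among 181. These rates cover tested genes of all count levels and were not computed for the 10 genes.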

Additional observations from a re-analysis of the deposited data

How the results depend on the processing

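The median log2 fold change of the 10 genes was below 0 under all 13 alternatives (−0.22 to −0.13), and the ratio of summed expression stayed between 0.823 and 0.890 under 9. No gene of the 10 was called under 12 of 14 alternatives, and DESeq2 called 2 and the filter of at least 10 counts in every library 1. Every fit without 1 library called 0 of the 10, where these fits called 0.114% to 0.812% of all tested genes. Among the other genes around the cycle (4 calls), DESeq2 called 20, the filter of at least 10 counts 7, and the fits without 1 library 1 to 3. These settings were applied to the other lists after the data had been seen. For *CycG* DESeq2 gave 0.40 with an adjusted p of 0.000502, within a range of 0.000502 to 0.273. The log2 fold change of *Idh3g* turned below 0 under RLE scaling (−0.00075), DESeq2 (−0.012) and the filter of at least 1 count in total (−0.017), and ranged from −0.028 to 0.035 without 1 library. That of *kdn* ranged from −0.17 to 0.041 in the same fits. The cause was not tested.

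Libraries with the same replicate number had correlations of −0.10, −0.18 and −0.13 over their deviations from the group means. For each gene these deviations sum to 0 within a group, so that values of both signs arise in any case. The correlations therefore cannot tell whether the samples were paired. The only positive values were those of *CycGΔP* library 1 with control library 2 (0.24), 2 with control library 3 (0.17) and 3 with control library 1 (0.18). A block by this other arrangement was not fitted. With the replicate number as a block, edgeR called 2 of 9408 genes, 0 of the 10 genes and 0 of the others around the cycle, and the median of the 10 was −0.17.

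Over all genes, edgeR called 134 genes and DESeq2 564, and leaving out 1 library gave 11 calls (without *CycGΔP* library 3) to 78 (without control library 1). With 3 libraries per group the exact test of a ratio cannot go below p = 0.1. The log2 difference of *SdhA* to *SdhB* ranged from 0.32 to 0.55 and that of *Idh3a* to *Idh3g* from −0.27 to −0.22 without 1 library.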

Other observations

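Among 6365 tested genes outside the 10 with a mean of at least 10 CPM, the 5 genes whose profile over the 6 libraries was most like the mean profile of the 10 TCA cycle genes were *Rtca*, *Atg4a*, *shf*, *tld* and *CG7556*. Likeness was measured as the root-mean-square difference of log2 CPM, each gene centred on its own mean, and was 0.025 for *Rtca*, 0.026 for *Atg4a* and *shf*, and 0.028 for *tld* and *CG7556*. *Rtca*, an RNA 3′-terminal phosphate cyclase gene, had 48.6, 42.7 and 43.9 CPM in *CycGΔP* discs, against 48.6, 53.1 and 51.6 CPM in control discs. *tld*, which encodes the tolloid metalloprotease, had 67.2, 61.4 and 62.7 CPM in *CycGΔP* discs, against 70.0, 80.7 and 72.4 CPM in control discs. None of the 5 passed edgeR's test at an adjusted p under 0.05. Of the 10 genes themselves, *Idh3a* was nearest to the mean profile (0.037), and *SdhB* (0.21) and *Fum1* (0.20) were farthest from it.

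*ATPCL*, coding for the ATP citrate lyase that cleaves exported citrate to acetyl-CoA, had 241, 209 and 236 CPM in *CycGΔP* discs, against 274, 305 and 282 CPM in control discs (log2 fold change −0.33 ± 0.085, SE, edgeR adjusted p = 0.139). *Idh*, the NADP-dependent isocitrate dehydrogenase gene, had 708, 677.5 and 721 CPM in *CycGΔP* discs, against 749, 772 and 811 CPM in control discs (log2 fold change −0.15, edgeR adjusted p = 0.382). *ATPCL* and *Idh* were named after their values had been seen.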
